A study of Mus musculus with 12 samples.

Results

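The 10 genes described here encode the classical and non-classical MHC class I heavy chains H2-K1, H2-D1, H2-Q7 and H2-T23, their light chain B2m, the peptide loading proteins Tap1, Tap2, Tapbp and Erap1, and the class I transactivator Nlrc5. They were taken by symbol as genes of the pathway, with earlier results of these data known, and all 10 were found among 55536 annotated mouse genes and passed the filter on low counts. RNA was sequenced from CD8+ T cells of OT-I TCR transgenic mice on the C57BL/6J background, whose T cell receptor recognises an ovalbumin peptide presented by H2-K1. In the Ag group (5 libraries), OT-I cells were transferred into C57BL6/J recipients that received antigen only, which the study's methods give as the peptide with rat IgG. In the Ag+Costim group (5 libraries), recipients received antigen together with the agonist antibodies anti-OX40 (CD134) and anti-41BB (CD137). Both transferred groups were sorted from spleen and lymph nodes on day 4 by the labels, while the methods state a slightly earlier harvest. The Naive group (2 libraries) was OT-I cells purified from mice that had received neither transfer nor stimulation, so Naive cells also differ from the other groups in never having been in a wild-type host. Per the methods, the OT-I donors lacked Rag1 or Rag2, and mice of both sexes and a range of ages were used. The labels give no age and do not say that each library is a separate mouse, so p-values measure the spread between these libraries.

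MHC class I molecules display peptides from cytosolic proteins to CD8+ T cells. Peptides cut by the proteasome are carried into the endoplasmic reticulum by the Tap1 and Tap2 transporter, trimmed by the aminopeptidase Erap1 and loaded with the help of tapasin (Tapbp) onto a heavy chain paired with B2m. T cells express these molecules themselves, and Nlrc5 acts in lymphocytes as a coactivator at class I, B2m and Tap promoters.

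Libraries held between 24006053 (Ag 4) and 49294934 (Ag+Costim 3) counts over all deposited entries, annotated or not, and the other 10 libraries held at least 40028682. A floor of 3 counts corresponded to at most 0.125 CPM (counts scaled to library size with TMM factors), against a lowest value for any member of 63.3 CPM. The label CD8+ T cell was borne out by 6 of 6 T cell markers, whose summed level was 9005 and 9664 CPM in Naive, 7123 to 10762 CPM in Ag and 3976 to 5462 CPM in Ag+Costim. In that list Cd8b1, the beta chain of the CD8 coreceptor, was the most abundant gene over the 12 libraries together, although Trac was above it in both Naive libraries (3582 and 3424 CPM against 2186 and 2071 CPM). Of the 6, 5 were lower in Ag+Costim than in Ag, against 26.5% of all genes. The leading gene of each list below is likewise that over all libraries together. Transcripts known as markers of other cells were present too. The methods state that the transferred cells were sorted on CD8, a congenic marker and the OT-I receptor chains. The 6 B cell markers summed to 27.2 and 29.7 CPM in Naive, 109 to 158 CPM in Ag and 22.8 to 59.7 CPM in Ag+Costim, led by Cd79b, and 2 of their defining genes, Pax5 and Ebf1, were at 0 in both Naive libraries. The 8 myeloid and dendritic cell markers, led by Lyz2, summed to 30.8 and 56.3 CPM in Naive, 59.8 to 186 CPM in Ag and 106 to 273 CPM in Ag+Costim, where Itgax, at 25.6 to 141 CPM, had a higher mean than Lyz2. In Ag+Costim against Ag, Itgax changed by 2.58 and Lyz2 by -0.44 on the log2 scale. The median of the 8 was -0.28, with 3 called higher and 0 lower (26.6% and 26.5% of all genes). Erythroid transcripts, led by Hba-a1, summed to 150 and 2069 CPM in Naive, 626 to 6379 CPM in Ag with the highest value in Ag 4, and 14.5 to 223 CPM in Ag+Costim. The 2 NK cell markers, led by Klrb1c, summed to at most 14.5 CPM in any library, and the 2 CD4 T cell markers, led by Zbtb7b, to at most 7.97 CPM. The part of such cells in the results was not tested. In bulk RNA, fewer cells of a type and less RNA per cell cannot be told apart.

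Promoter sequence of 8 members was read from RefSeq (GRCm38.p6); Tap2 and Nlrc5 were not matched. The 250 bases before each start were searched on both strands for GGG and TTCCC set 2 bases apart (an NF-kB type element), TTTCNNTTC (an interferon response type element), TGACG (the core of the X2 box) and CCAAT (the Y box core), motifs that were chosen after the sequences had been seen. A TGACG followed after 15 to 25 bases by ATTGG, the reverse of CCAAT, was present in 4 of the 8, namely H2-K1, H2-D1, H2-Q7 and B2m, with gaps of 20, 20, 19 and 20 bases. The same arrangement on either strand was present in 125 of 32851 mouse promoters (0.381%). The stretches of H2-K1 (chr17:34000353-34000464, minus strand), H2-Q7 (chr17:35439016-35439125, plus strand) and B2m (chr2:122147603-122147644, plus strand) are shown 5′ to 3′ because these genes share that arrangement. Capitals mark matches to the motifs, none of which overlap.
H2-K1: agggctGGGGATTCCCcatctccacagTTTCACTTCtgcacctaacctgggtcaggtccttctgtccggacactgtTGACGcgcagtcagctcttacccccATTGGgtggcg
H2-Q7: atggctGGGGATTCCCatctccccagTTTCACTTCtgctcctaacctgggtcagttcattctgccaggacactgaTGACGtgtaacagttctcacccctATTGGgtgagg
B2m: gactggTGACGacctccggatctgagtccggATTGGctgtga

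In these letters H2-K1 and H2-Q7 carried all 4 motifs in the same order, and B2m carried the TGACG and ATTGG pair alone. H2-D1 had the 4 motifs in that order too, within a first exon annotated by GENCODE, so its letters are not shown. The H2-T23 window held CCAAT only, Tapbp held CCAAT at 2 places, Tap1 held TGACG and CCAAT apart from each other, and Erap1 held none of the 4. Over all promoters of this length, the NF-kB type element was present in 1.53%, TTTCNNTTC in 6.31%, TGACG in 17.8% and CCAAT in 33.8%. A match describes letters and not a bound site.

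Levels were compared between members on the deposited FPKM scale, which divides by transcript length. The heavy chains H2-D1 and H2-K1 and the light chain B2m stood at mean levels of 2884, 2925 and 2730 FPKM in Naive, 3612, 3480 and 3826 FPKM in Ag, and 2084, 1609 and 2202 FPKM in Ag+Costim. In Ag they were the genes of rank 6 (B2m), 7 (H2-D1) and 8 (H2-K1) of 12429 genes at 1 FPKM or more, and in Ag+Costim they were at rank 11 (B2m), 12 (H2-D1) and 19 (H2-K1) of 12127. Within Ag, values of these 3 genes overlapped, from 3187 to 4657 FPKM for B2m, 3463 to 3839 FPKM for H2-D1 and 3200 to 3611 FPKM for H2-K1. The other heavy chains were lower, at 479 FPKM ± 60.5 for H2-Q7 and 387 FPKM ± 32.7 for H2-T23 in Ag (SD, n = 5), with ranges that overlapped. Below them came tapasin at 282 FPKM ± 49, and then Tap1 at 112 FPKM ± 12.3 and Tap2 at 89.4 FPKM ± 15.4, which overlapped each other. The least abundant members were the peptidase Erap1, at 14.1 FPKM ± 1.99, and the coactivator Nlrc5, at 12.3 FPKM ± 3.10, whose ranges overlapped.

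The comparison of Ag+Costim with Ag addresses what costimulation adds to antigen. Among the 10 members, costimulated cells had lower transcript levels of most chains that form the class I molecule. Levels of the coactivator Nlrc5 and of most peptide loading genes were higher. H2-K1, H2-D1, H2-T23 and B2m were lower, Nlrc5, Erap1, Tap2 and Tap1 were higher, and H2-Q7 and Tapbp did not pass the test. Thus 8 of the 10 members were called, 4 higher and 4 lower, at an adjusted p below 0.05 over all genes. Of all 18817 genes tested, 53.1% were called in this comparison, 26.6% higher and 26.5% lower, so a change as such was common. The median log2 fold change was 0.05 over the members and -0.05 over all genes. In 2 members every Ag+Costim library was above every Ag library and in 4 every one was below, against 39.8% of all genes whose groups did not overlap.

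**Figure D1:**
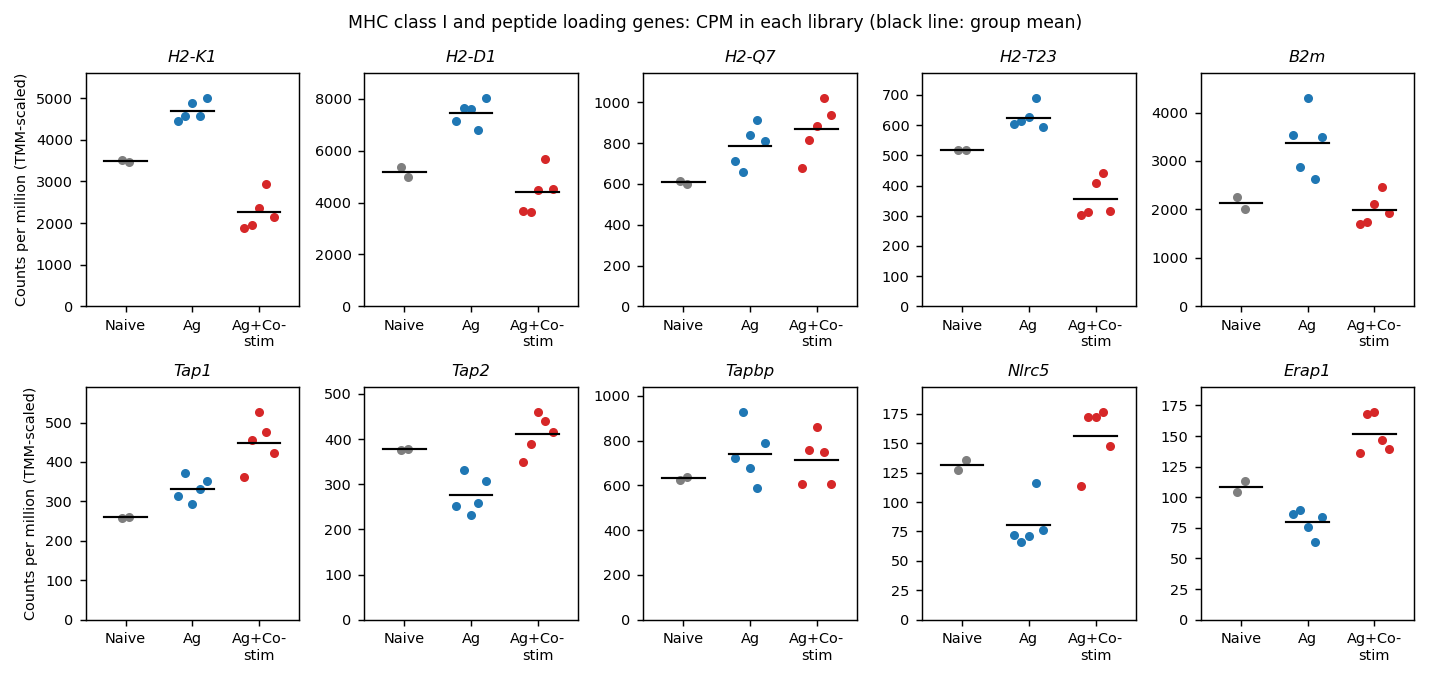
Each panel gives 1 gene, with CPM (TMM-scaled) on the y axis from 0 and 1 point per library in Naive (n = 2), Ag (n = 5) and Ag+Costim (n = 5). The black line is the group mean. H2-K1, H2-D1, H2-T23 and B2m are lower in every Ag+Costim library than in any Ag library, and Tap2 and Erap1 are higher in every one.

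H2-K1 (ENSMUSG00000061232.16, chr17:33996017-34000347, mm10, minus strand) encodes the classical heavy chain that presents the OT-I peptide. Its values were 4452, 4579, 4897, 4569 and 5000 CPM in Ag 1 to 5, and 1884, 1964, 2361, 2932 and 2156 CPM in Ag+Costim 1 to 5. The highest costimulated library lay well below the lowest antigen-only library. The fitted log2 fold change was -1.06 (SE 0.11, edgeR, adjusted p = 3.23e-06), the largest fall of any member in this comparison. Both Naive libraries, at 3517 and 3472 CPM, were between the 2 groups.

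H2-D1 (ENSMUSG00000073411.11, chr17:35262730-35267499, plus strand), the other classical heavy chain of this strain, had 7134, 7625, 7584, 6795 and 8018 CPM in Ag. Its values in Ag+Costim were 3691, 3648, 4478, 5672 and 4524 CPM, again without overlap. The log2 fold change was -0.76 (SE 0.11, edgeR, adjusted p = 8.60e-05). H2-T23 (ENSMUSG00000067212.8, chr17:36029773-36032855, minus strand) encodes Qa-1, a non-classical molecule that presents a narrow set of peptides and is read by NK receptors. It was at 602, 614, 626, 689 and 594 CPM in Ag and at 304, 313, 410, 440 and 317 CPM in Ag+Costim. All 5 costimulated libraries were lower, with a log2 fold change of -0.81 (SE 0.11, edgeR, adjusted p = 3.14e-05).

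H2-Q7 (ENSMUSG00000060550.16, chr17:35439155-35443773, plus strand) encodes Qa-2, a non-classical heavy chain, and differed from the other 3 heavy chains. Its values were 713, 658, 842, 911 and 810 CPM in Ag and 680, 817, 882, 1020 and 940 CPM in Ag+Costim. The groups overlapped, and the log2 fold change of 0.14 (SE 0.12, edgeR, adjusted p = 0.326) did not pass the test and was -0.06 under upper-quartile scaling. H2-Q7 has near-identical neighbours such as H2-Q6, between which reads may have been split in counting, so both values are uncertain. H2-Q6 itself was at 490 to 635 CPM in Ag and 413 to 571 CPM in Ag+Costim, with a log2 fold change of -0.18 (SE 0.10, edgeR, adjusted p = 0.173).

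B2m (ENSMUSG00000060802.8, chr2:122147686-122153083, plus strand), the light chain that all class I heavy chains need to reach the cell surface, had 3529, 2880, 4295, 2632 and 3488 CPM in Ag. In Ag+Costim it had 1700, 1731, 2118, 2468 and 1921 CPM. The groups did not overlap, although Ag 4 at 2632 CPM was close to the highest costimulated value. The log2 fold change was -0.76 (SE 0.14, edgeR, adjusted p = 0.000412). Markers of the T cells fell alongside these chains, Cd8a by 0.93 and Cd3g by 1.71 on the log2 scale, and the part of that shift in the class I values was not tested.

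Tap1 (ENSMUSG00000037321.17, chr17:34187553-34197225, plus strand) and Tap2 (ENSMUSG00000024339.12, chr17:34203527-34216321, plus strand) encode the chains of the peptide transporter. Tap1 was at 313, 371, 294, 331 and 353 CPM in Ag and at 361, 455, 528, 475 and 424 CPM in Ag+Costim. Only Ag+Costim 1 fell within the Ag range, and the log2 fold change was 0.43 (SE 0.10, edgeR, adjusted p = 0.00278). That call was lost under upper-quartile scaling (0.24, adjusted p = 0.0549), which moved the median of all genes to -0.24. Tap2 was at 251, 331, 231, 259 and 308 CPM in Ag and at 350, 390, 461, 439 and 416 CPM in Ag+Costim. Here every costimulated library was above every Ag library, with a log2 fold change of 0.58 (SE 0.11, edgeR, adjusted p = 0.000536).

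Tapbp (ENSMUSG00000024308.15, chr17:33915899-33929292, plus strand), the tapasin that bridges the transporter and the empty class I molecule, had 721, 930, 676, 587 and 789 CPM in Ag and 604, 758, 860, 747 and 608 CPM in Ag+Costim. The groups overlapped almost fully, and the log2 fold change was -0.05 (SE 0.13, edgeR, adjusted p = 0.774), with values from -0.12 to 0.05 when single libraries were left out.

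Erap1 (ENSMUSG00000021583.7, chr13:74639568-74693201, plus strand), which trims peptides to the length that fits class I molecules, had 86.3, 89.2, 75.5, 63.3 and 83.5 CPM in Ag. In Ag+Costim it had 136, 168, 170, 147 and 139 CPM, all above the highest Ag value. The log2 fold change was 0.94 (SE 0.10, edgeR, adjusted p = 5.73e-06). Nlrc5 (ENSMUSG00000074151.13, chr8:94434356-94527272, plus strand) had 72.2, 66.4, 71.1, 116 and 75.9 CPM in Ag and 114, 172, 172, 177 and 148 CPM in Ag+Costim. The 2 groups touched at a single pair of libraries, Ag 4 and Ag+Costim 1. The log2 fold change was 0.96 (SE 0.16, edgeR, adjusted p = 0.000174), and 1.13 without Ag 4. With a correction for transcript length all 8 calls of this comparison were kept, at smaller values of 0.48 for Erap1, 0.61 for Nlrc5, 0.26 for Tap1, 0.37 for Tap2 and -0.47 for B2m. The coactivator was thus higher in the group in which the classical heavy chains and B2m, which it is known to activate, were lower. This compares groups, and the relation over libraries within a group was not tested. Annotated genes overlap Tapbp (Zbtb22) and Nlrc5 (Mir7072) on the same strand and H2-T23, B2m (Patl2), Tap1 (Psmb9), Tap2 and Erap1 (Cast) on the opposite strand; whether counting used strand is not given in the sources used here.

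Comparison of Ag with Naive addresses the response to antigen alone. With antigen only, the class I chains were at or above their Naive level, whereas Nlrc5, Tap2 and Erap1 were below it. In this comparison 7 of 10 members were called, 4 higher (B2m, H2-D1, H2-K1 and Tap1) and 3 lower (Nlrc5, Tap2 and Erap1), while 46.7% of all genes were called, 24.2% higher and 22.5% lower. For B2m the fitted log2 change was 0.66 (SE 0.19, edgeR, adjusted p = 0.0115), from 2247 and 2008 CPM in Naive. Nlrc5, at 127 and 136 CPM in Naive, changed by -0.71 on the log2 scale (SE 0.20, edgeR, adjusted p = 0.0108), and only Ag 4 came near its Naive level. Tap2 was at 375 and 379 CPM in Naive, above all 5 Ag libraries, with a log2 fold change of -0.45 (SE 0.14, edgeR, adjusted p = 0.0182). Tap1 was at 259 and 260 CPM, below all of them, and its fitted log2 change was 0.36 (SE 0.14, edgeR, adjusted p = 0.0474). Separation of this kind was common, since Ag and Naive did not overlap for 56.4% of all genes. H2-Q7 (0.37, SE 0.16), H2-T23 (0.28, SE 0.15) and Tapbp (0.23, SE 0.17) were not called by edgeR (adjusted p = 0.0663, 0.14 and 0.3). These calls depend on both Naive libraries, with 3 members called without Naive 1 and 0 without Naive 2, where 5713 genes were called in place of 8792 and the log2 fold changes were 0.58 for B2m and -0.66 for Nlrc5. The call of Tap1 was lost without any of 9 single libraries (edgeR, adjusted p up to 0.195), that of H2-K1 also without Ag 3 or Ag 5 (adjusted p = 0.0508 and 0.0517), and H2-Q7 was called without Ag 2 or Ag+Costim 1 (adjusted p = 0.0375 and 0.0411). On the FPKM scale H2-K1, H2-D1 and Tap1 were not called (0.25, 0.32 and 0.22, limma, adjusted p = 0.124, 0.0727 and 0.171). With a correction for transcript length 2 members were called, Tap1 (0.58, edgeR, adjusted p = 0.00201) and H2-D1 (0.49, adjusted p = 0.0109). The other 5 were then not called, at 0.36 for B2m, 0.20 for H2-K1, -0.19 for Tap2, -0.03 for Nlrc5 and 0.18 for Erap1.

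Comparison of Ag+Costim with Naive called 5 of 10 members, 3 higher and 2 lower, a share close to the 52.3% of all genes that were called (26.9% higher, 25.4% lower). Tap1 (0.79, SE 0.14, edgeR, adjusted p = 0.000385), H2-Q7 (0.51, adjusted p = 0.0144) and Erap1 (0.49, adjusted p = 0.0107) were higher. H2-K1 (-0.63, SE 0.14, edgeR, adjusted p = 0.00215) and H2-T23 (-0.53, adjusted p = 0.00613) were lower, with every costimulated library under both Naive libraries. The same held for 34.2% of all genes, and 66.0% of all genes did not overlap in either direction. H2-D1 (-0.24, SE 0.15), B2m (-0.10, SE 0.18), Tap2 (0.13, SE 0.14), Tapbp (0.18, SE 0.17) and Nlrc5 (0.25, SE 0.21) did not pass edgeR's test. On the FPKM scale the last 3 had values of -0.20 (Tap2), -0.04 (Tapbp) and -0.03 (Nlrc5), H2-D1 was called lower (-0.49, limma, adjusted p = 0.01) and Erap1 was no longer called (0.26, adjusted p = 0.132). With a correction for transcript length, Nlrc5 was called higher (0.57, edgeR, adjusted p = 0.0125). H2-Q7 and Erap1 lost their calls without either Naive library, which left 3 members called. H2-D1 was called lower without Ag+Costim 4 (-0.33, edgeR, adjusted p = 0.0315) and under upper-quartile scaling (-0.39, adjusted p = 0.0463), which moved the median of all genes to -0.18 and ended the call of H2-Q7. The 3 comparisons share libraries, so their fold changes, given side by side in the plot of fitted fold changes, are not independent.

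**Figure D2:**
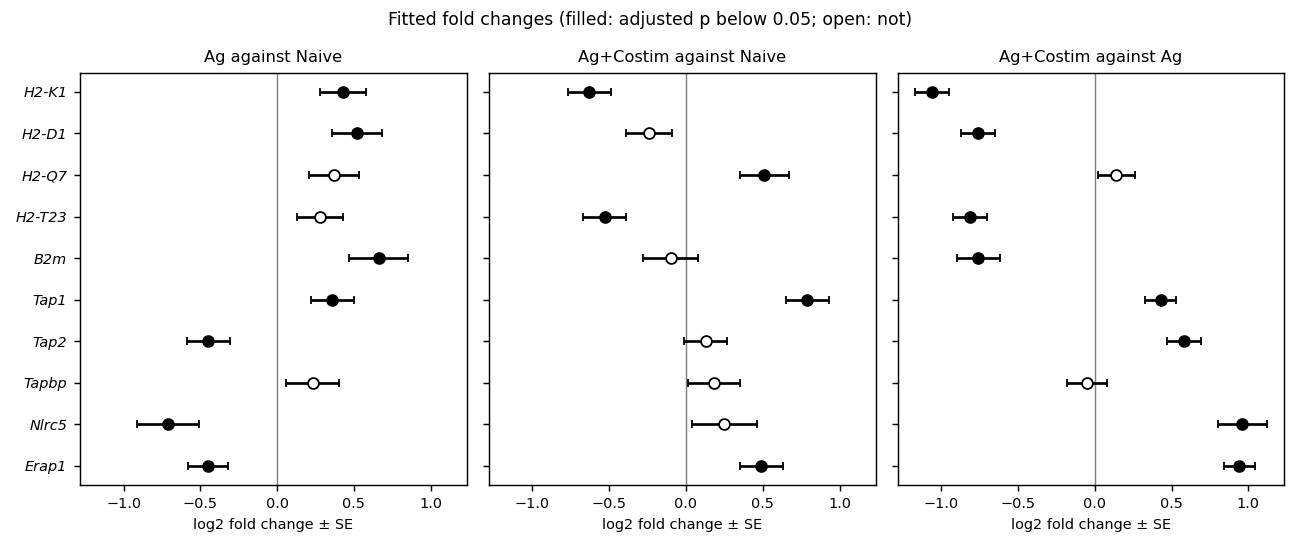
Points are edgeR log2 fold changes on the x axis with their standard errors as bars, 1 row per gene and 1 panel per comparison; filled points passed an adjusted p below 0.05. H2-K1, at 0.43 against Naive in Ag and -0.63 in Ag+Costim, and Nlrc5, at -0.71 and 0.25, lie on opposite sides of 0 in the first 2 panels.

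As a share of all counts in annotated genes, the 10 members made up 1.51% ± 0.045 in Naive (SD, n = 2), 1.83% ± 0.0516 in Ag and 1.13% ± 0.172 in Ag+Costim (SD, n = 5). Most of this came from H2-K1, H2-D1 and B2m, at 1.54% in Ag and 0.831% in Ag+Costim. The combined share of Tap1, Tap2, Tapbp, Nlrc5 and Erap1 was 0.169% in Naive, 0.150% ± 0.0197 in Ag and 0.181% ± 0.0212 in Ag+Costim.

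Ratios between members within a library do not depend on a single scaling factor per library, but they were not corrected for transcript length. In the fit with that correction, some log2 fold changes in Ag+Costim against Ag lay closer together, at 0.48 for Erap1 and 0.26 for Tap1, and at -0.81 for H2-K1 and -0.67 for H2-D1. B2m, at -0.47, lay further from both classical heavy chains than without the correction, and H2-T23 was at -0.59. All 8 ratios were compared between Ag and Ag+Costim by a two-sided exact permutation test, in which the arrangements of 5 against 5 libraries allow no p below 0.00794, and adjusted over the 8. The log2 ratio of H2-Q7 to the sum of H2-K1 and H2-D1 was -3.96 ± 0.21 in Ag and -2.94 ± 0.13 in Ag+Costim (SD, n = 5), a rise of 1.02 with no overlap between the groups (exact permutation p = 0.00794, adjusted 0.0127). H2-Q7 thus took a larger place among heavy chain transcripts although its own level did not pass the test. The ratio of Nlrc5 to the same sum rose by 1.86, from -7.27 ± 0.37 to -5.41 ± 0.24 (exact permutation p = 0.00794, adjusted 0.0127). H2-K1 relative to H2-D1 went from -0.66 ± 0.06 to -0.96 ± 0.07, so that H2-K1 was reduced more than H2-D1 (difference -0.30, exact permutation p = 0.00794, adjusted 0.0127). For H2-T23 the difference was 0.06 (exact permutation p = 0.5) and for B2m 0.13 (exact permutation p = 0.270, adjusted 0.308). A change of B2m or H2-T23 apart from the classical heavy chains was not detected with 5 libraries a group. With single libraries left out, the difference ranged from 0.07 to 0.21 for B2m and from 0.01 to 0.12 for H2-T23. Neither passed then (exact permutation, lowest adjusted p = 0.0635 and 0.181).

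Among the loading genes, the log2 ratio of Tapbp to Tap1 fell from 1.14 ± 0.19 to 0.67 ± 0.09 (difference -0.47) and that of Erap1 to Tap1 rose from -2.07 ± 0.20 to -1.56 ± 0.13 (difference 0.51), each with an exact permutation p = 0.00794 (adjusted 0.0127). The ratio of Tap1 to Tap2 was -0.54 in both Naive libraries, 0.28 ± 0.09 in Ag and 0.12 ± 0.09 in Ag+Costim. Between Ag and Ag+Costim it differed by -0.16 and did not pass after adjustment (exact permutation p = 0.0397, adjusted 0.0529). Naive, with 2 libraries, was not tested in these ratios.

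**Figure D3:**
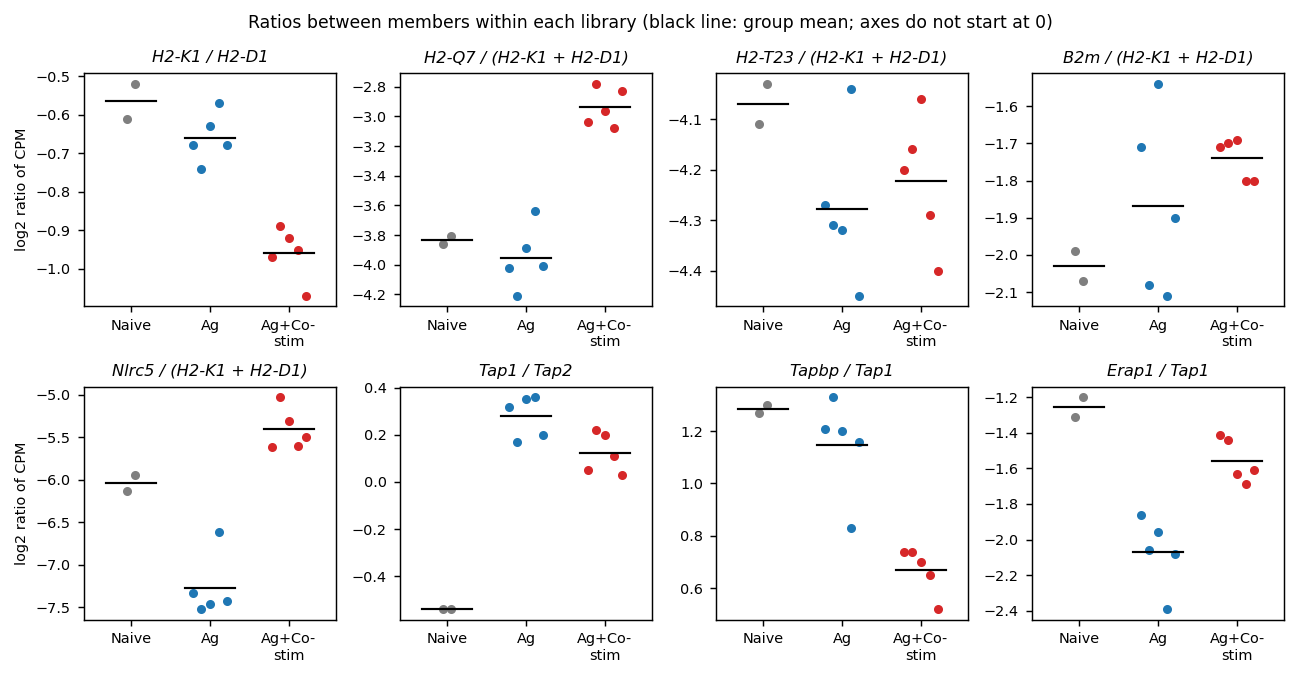
Each panel shows 1 log2 ratio of CPM between members in each library of Naive (n = 2), Ag (n = 5) and Ag+Costim (n = 5), with the group mean as a black line; the y axes do not start at 0. Ag and Ag+Costim do not overlap for H2-K1 / H2-D1, for H2-Q7 and Nlrc5 over H2-K1 + H2-D1, or for Tapbp and Erap1 over Tap1.

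Other genes of the pathway were counted by lists. Of 15 tested other class I and class I-like heavy chains, 8 were lower and 1 was higher in Ag+Costim than in Ag (26.5% and 26.6% of all genes), with a median log2 fold change of -0.67 against -0.05 over all genes. Among them the lipid-presenting Cd1d1 fell by 1.40 and Cd1d2 by 1.42 on the log2 scale, and H2-M3, which presents formylated peptides, was at 116 to 147 CPM in Ag and 47.9 to 69.8 CPM in Ag+Costim. The exception was H2-Q10, which encodes a secreted class I molecule known mainly from liver, at 12.8 to 50.1 CPM in Ag and 112 to 183 CPM in Ag+Costim (log2 fold change 2.56, SE 0.34, edgeR, adjusted p = 2.42e-05). Against Naive, 5 of the 15 were higher and 1 was lower in Ag, beside 24.2% and 22.5% of all genes. Of these Hfe, which limits iron uptake, had a log2 fold change of 1.63, and H2-M2 was at 0 in both Naive libraries and at most 0.812 CPM in Ag.

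Of 10 tested genes listed as folding and loading partners, 7 were higher and 1 was lower in Ag+Costim than in Ag (26.6% and 26.5% of all genes), with a median of 1.00. The chaperone calnexin (Canx), which holds new heavy chains, was at 124 to 157 CPM in Ag and 492 to 785 CPM in Ag+Costim (log2 fold change 2.16, SE 0.12, edgeR, adjusted p = 1.68e-08). Calreticulin (Calr), part of the loading complex, was at 265 to 323 CPM and 747 to 1136 CPM (1.61, SE 0.11, edgeR, adjusted p = 1.12e-07). H13, the signal peptide peptidase, fell by 0.47. Tapbpl, the tapasin-related editor, and the aminopeptidase Lnpep each had a value of -0.01 (edgeR, adjusted p = 0.974 and 0.927). In Ag against Naive, 3 of these 10 were higher, led by the chaperone Hspa5 (0.70) and H13 (0.56), and 3 were lower, among them Uggt1 (-0.83) and Ganab (-0.66), which act on glycans of new proteins; both counts were near the shares of all genes (24.2% and 22.5%).

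The genes that make the peptides were counted in 3 lists, beside 24.2% of all genes higher in Ag than in Naive and, in Ag+Costim against Ag, 26.6% higher and 26.5% lower. All 5 genes of the immunoproteasome and its PA28 activator were higher in Ag than in Naive, led by Psmb9 (log2 fold change 1.56, SE 0.14, edgeR, adjusted p = 1.77e-06) and Psmb8 (1.02), and all 5 were lower in Ag+Costim than in Ag, led by Psme1 (-0.65, SE 0.10, edgeR, adjusted p = 9.51e-05) and Psmb10 (-0.62). Psmb9 was at 176 and 197 CPM in Naive, 512 to 619 CPM in Ag and 337 to 447 CPM in Ag+Costim. Of the 3 constitutive catalytic subunits, 3 were higher in Ag than in Naive and 1, Psmb7, was higher in Ag+Costim than in Ag (0.78), where the other 2 did not pass the test. All 6 cytosolic peptidases were higher in Ag+Costim than in Ag, with a median of 0.93, led by Thop1 (2.02, SE 0.15, edgeR, adjusted p = 1.80e-07) and Tpp2 (1.2), which cut proteasome products further. Tpp2 and Nrd1 were lower in Ag than in Naive (-0.40 and -0.49), and Blmh was higher (0.83).

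Among 23 regulators of class I transcription, 6 were higher and 11 were lower in Ag+Costim than in Ag, beside 26.6% and 26.5% of all genes, so that the count higher was near that background. Ifng, the cytokine that induces class I genes, was at 0.576 and 0.966 CPM in Naive, 12.6 to 19.5 CPM in Ag and 7.28 to 10.5 CPM in Ag+Costim. It fell by 0.82 on the log2 scale between the last 2 groups (SE 0.17, edgeR, adjusted p = 0.00127). Ifngr2, a chain of its receptor, was at 50.9 and 51.2 CPM in Naive, 2.91 to 4.31 CPM in Ag and 1.33 to 3.49 CPM in Ag+Costim. Socs1, an inhibitor of interferon signalling, fell by 0.85, whereas Nfya, a subunit of the factor that binds CCAAT, rose by 1.55 and Irf8 by 1.23. Against Naive, 6 of the 23 were higher in Ag, near the 24.2% of all genes, led by Ifng (4.37) and Irf8 (2.69), and 4 were lower, beside 22.5% of all genes, led by Ifngr2 (-3.85) and the kinase Jak1 (-1.06). Irf1 (-0.24, adjusted p = 0.125) and Rfx5 (0.05, adjusted p = 0.788) did not pass edgeR's test between Ag+Costim and Ag. Rfxap (-0.52, SE 0.12, edgeR, adjusted p = 0.00168) and Rfxank (-0.50, SE 0.10, edgeR, adjusted p = 0.00121), also on the list, were called lower.

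MHC class II genes, which present to CD4 T cells and which mouse T cells express little, were taken as a contrast. Of 11 tested, 10 were higher in Ag than in Naive (24.2% of all genes) and 8 were lower in Ag+Costim than in Ag (26.5% of all genes), with medians of 3.23 and -1.2. H2-Ob, which modulates class II loading, was at 67.8 to 90.1 CPM in Ag and 3.82 to 11.7 CPM in Ag+Costim, and H2-Oa was at 47.7 to 59.1 CPM and 6.19 to 12.1 CPM. H2-DMb2 was at 0.609 and 1.44 CPM in Naive and 13.8 to 22.2 CPM in Ag, and H2-Eb2 was at 0 in Naive and at most 0.216 CPM in Ag. H2-Ob stood at 84.7 and 102 CPM in Naive and did not pass the test in Ag against Naive (-0.24, edgeR, adjusted p = 0.532). The summed B cell markers given above were at 109 to 158 CPM in Ag and at most 59.7 CPM in the other libraries, and the part of B cells in the class II values was not tested.

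**Figure D4:**
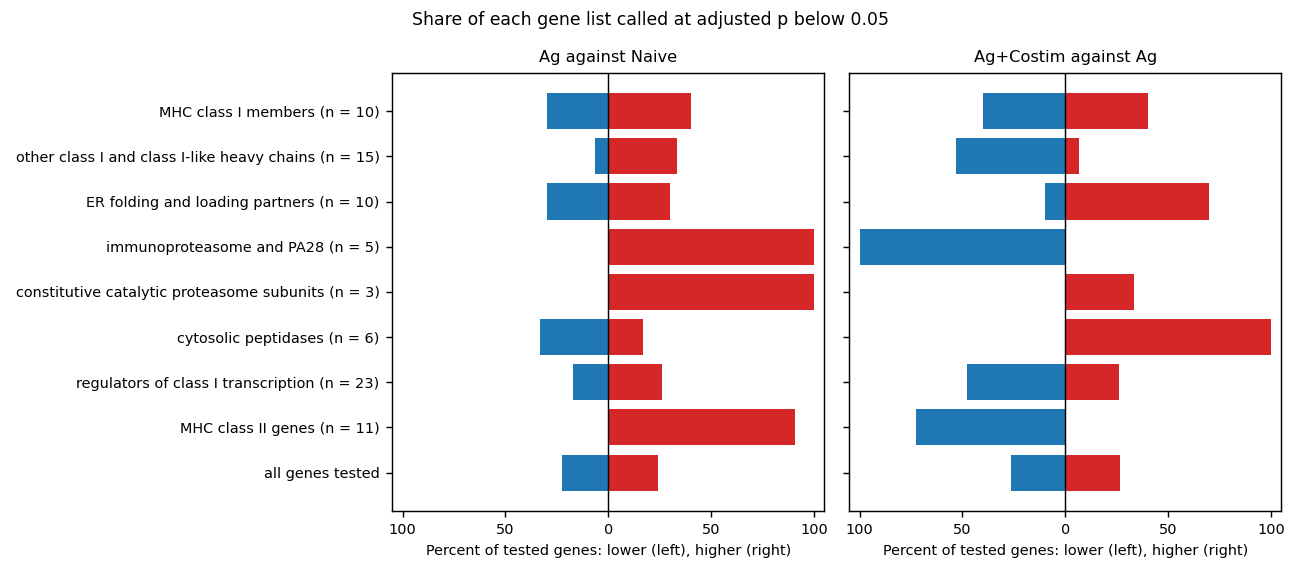
Bars give the percent of tested genes in each list called higher (right) or lower (left) at an adjusted p below 0.05, for Ag against Naive and Ag+Costim against Ag, with all genes tested at the bottom. The 5 immunoproteasome and PA28 genes are all higher in the first panel and all lower in the second, where the 6 cytosolic peptidases are all higher.

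Transcript use within the members was examined as the percent of a gene's counts given to each annotated transcript. Of 18 transcripts with a mean share of at least 10% in a group, 3 differed between Ag and Ag+Costim by the exact permutation test (each p = 0.00794, adjusted 0.0476 over the 18). The 10% rule used the same shares as the test, so these p-values are not free of that choice. H2-Q7-204 met the rule only in Ag (mean 15.4%), and Nlrc5-201 only in Naive and Ag+Costim (10.1% in each). Shares within a gene are tied, so Nlrc5-201 and Nlrc5-207 are not separate results. H2-Q7-204, a shorter coding transcript, was at 13.1 to 17.3% in Ag and 7.80 to 10.3% in Ag+Costim, against 4.27 and 5.30% in Naive. Nlrc5-201 was listed at 0 in all 5 Ag libraries and at 0.852, 2.57, 9.38, 19.1 and 18.5% in Ag+Costim, with 15.2 and 4.99% in Naive. Nlrc5-207, the main coding transcript, was at 96.8 to 97.8% in Ag and 70.8 to 96.5% in Ag+Costim, where Ag+Costim 1 and 2 stayed just under the Ag range and the other 3 lay far below it. No transcript passed with 4 libraries in a group, where the test has less room. Shares come from single-end reads assigned to overlapping models, and a listed 0 may be an assignment rather than an absence.

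Retained-intron forms were a sizeable share of several members. H2-T23-204, a retained-intron transcript, was at 24.9 and 28.8% in Naive, 15.9 to 24.4% in Ag and 9.53 to 16.8% in Ag+Costim (Ag+Costim against Ag, exact permutation p = 0.0159, adjusted 0.0714), and the coding H2-T23-201 was at 69.3 to 79.4% in Ag and 78.3 to 85.1% in Ag+Costim (p = 0.0238, adjusted 0.0857). Neither passed after adjustment. Tap2-202, which also retains an intron, ranged from 11.8 to 57.8% within Ag and from 15.4 to 41.6% within Ag+Costim, a spread wide against the difference of -14.8 percentage points (exact permutation p = 0.214, adjusted 0.429). H2-D1-202, Tapbp-206 and Erap1-201 each held at least 95.7% of their gene's counts in every library.

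The deposited splicing table gives 1 Psi (the fraction of reads that include a node, a stretch of exon) per group, with no spread, so no test was made. Of 137 nodes in the members, 10 differed by more than 0.1 between Ag and Ag+Costim (7.30%, against 7.39% of all 115403 nodes). They lay in Nlrc5 (8 of 53 nodes) and H2-Q7 (2 of 10), the same 2 genes that held the called transcripts. Both measures come from the same libraries, so neither is independent of the other. For H2-Q7 the node at chr17:35442267-35442542 had a Psi of 0.612 in Ag and 0.747 in Ag+Costim. In Nlrc5, 5 core exon nodes had a higher Psi in Ag+Costim, for example 0.854 and 0.988 at chr8:94490330-94490422, and a transcript end node went from 0.693 to 0.825 at chr8:94525979-94527264.

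**Figure D5:**
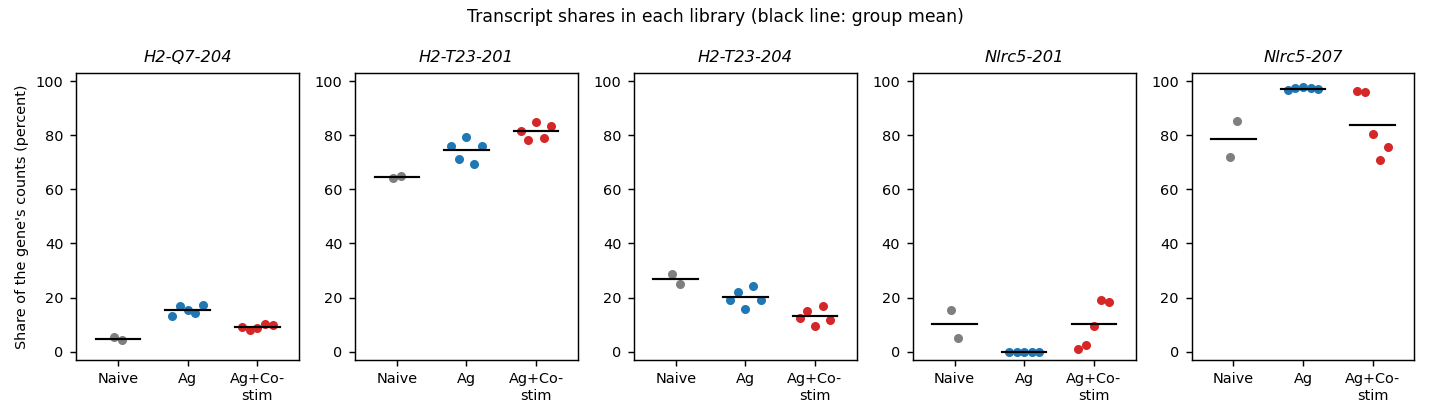
Each panel gives the percent of the gene's counts assigned to 1 transcript in each library of Naive (n = 2), Ag (n = 5) and Ag+Costim (n = 5), with group means as black lines. Nlrc5-201 is listed at 0 in every Ag library and ranges from 0.852 to 19.1% in Ag+Costim, while H2-Q7-204 lies between 7.80 and 10.3% there.

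Genes most like H2-K1 and Nlrc5 were taken by Pearson r of log2 CPM over the 12 libraries among 9253 genes, as a description of points that share 3 groups. The closest to H2-K1 were Yipf3 (r = 0.991), Rundc3a (0.990), Hes6 (0.988), Cd27 (0.985) and Commd4 (0.984). Cd27, a costimulatory receptor of T cells, had means of 539, 883 and 330 CPM in Naive, Ag and Ag+Costim. Among the members, r with H2-K1 was 0.976 for H2-T23, 0.963 for H2-D1 and 0.877 for B2m, but -0.897 for Erap1 and -0.759 for Nlrc5. The closest to Nlrc5 were Zfand2a (r = 0.979), Trim25 (0.966), Slc27a4 (0.965), Myo9b (0.965) and Erlin2 (0.958). Trim25, a ubiquitin ligase of antiviral signalling, had means of 80.6, 32.6 and 93.5 CPM in the same order of groups.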

How the data were processed

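Libraries were read from 1 end. Per the submitters' processing notes, the authors mapped them with HISAT2 (2.1.0) on the mm10 build and counted with StringTie (2.1.0). The deposited count tables hold coverage-derived counts per gene and transcript, not normalized. The deposited FPKM values are per transcript and were summed here by gene. The deposited Psi values are fractions per group, and the lane sheet holds the authors' percent of reads aligned and read totals. Of 81881 entries, 26248 without an annotated gene and 97 spike-ins (0 counts) were left out. Columns of the authors' own comparisons were not used. Counts were tested with edgeR 4.0.16 (TMM, filterByExpr, robust quasi-likelihood, all 12 libraries, two-sided, Benjamini-Hochberg over 18817 genes, adjusted p below 0.05); alternatives used limma 3.58.1 (log2(FPKM + 1)) and DESeq2 1.42.0. On simulated data for Ag+Costim against Ag (17535 genes), 71% of 200 genes changed by a log2 of 1 were called, with 8 false calls. The 10 members, the lists, the up to 2 largest rises and falls per list and the 5 genes most like H2-K1 and Nlrc5 are named by rule. H2-Q6, H2-M3, Tapbpl, Lnpep, Irf1, Rfx5, Rfxap, Rfxank and single markers were named after their values were seen. Members and lists were chosen with earlier results of these data known. Annotation was GENCODE vM21. Values of some single genes are not reported here.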

Additional observations from a re-analysis of the deposited data

Results flagged for a closer look

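Of 20 groups of 5 libraries examined (10 members in Ag and in Ag+Costim), 1 had a library that stood apart by Dixon's criterion, which chance alone meets in about 1 of 20 groups. Nlrc5 was at 116 CPM in Ag 4, while the other 4 Ag libraries were at 66.4 to 75.9 CPM. Ag 4 also had the fewest counts (24006053) and the highest erythroid sum (6379 CPM) of all libraries, and the part of either in this value was not tested. Without Ag 4 the log2 fold change of Nlrc5 was 1.13 in Ag+Costim against Ag and -0.88 in Ag against Naive.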

How the results depend on the processing

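Over 690 member fold changes recomputed under alternatives, 615 kept their direction and side of the threshold, 51 lost a call, 9 gained one and 15 changed direction. For Ag+Costim against Ag, 8 members were called under every library left out and 9194 to 10190 genes; upper-quartile scaling gave 4056 genes higher and 6338 lower in place of 5006 and 4979, and H2-Q7 at -0.06. Tapbp ranged from -0.12 to 0.05 when libraries were left out. For Ag against Naive, 7 members were called, but 2 with transcript length correction (Erap1 0.18), 4 with limma on FPKM at either pseudocount or without a filter, and 0 to 8 (genes 5713 to 9569) with libraries left out, 3 without Naive 1 and 0 without Naive 2. For Ag+Costim against Naive, 5 were called and 3 to 6 with libraries left out; Tap2 was -0.03 under upper-quartile scaling and -0.20 on FPKM, Tapbp -0.04 and Nlrc5 -0.03 on FPKM. Without a filter, limma on FPKM called 3299 genes higher and 6071 lower in Ag, and 3808 higher and 7302 lower in Ag+Costim, against Naive. The log2 ratio of Tap1 to Tap2 ranged from -0.18 to -0.13, with adjusted p = 0.0423 without Ag 2 or Ag+Costim 2 (exact permutation). With any 1 library left out, 0 of the 18 transcripts passed, since fewer arrangements are possible. The cause of these changes was not tested.

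Replicate numbers were shared by groups, but correlations of same-numbered Ag and Ag+Costim libraries were 0.02 to 0.10 and 3 of 5 Ag libraries were closest to their own number, so the numbers were not taken as pairs. With the replicate block, 2 members were called in Ag against Naive, 8 in Ag+Costim against Ag and 5 in Ag+Costim against Naive. The block left Nlrc5 and Tap2 called in Ag against Naive, while H2-K1, H2-D1, B2m, Tap1 and Erap1 had adjusted p = 0.14, 0.0906, 0.0632, 0.144 and 0.0525.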
